A study of Mus musculus with 5 samples.

Results

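The genes described here make or break down proline and asparagine, together with the glutamate and aspartate that both are built from. They were listed by name as Aldh18a1, Pycr1, Asns, Got1, Got2, Oat, Prodh and Glud1, and 7 of these 8 were measured among 22180 genes in all. Pycr1 had no probe set paired with its symbol and was not analysed here. Each gene was read from the probe sets that carry its symbol alone, and for Got2, which had more than 1 such probe set, the brighter was used.

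Proline is made in mitochondria and cytosol from pyrroline-5-carboxylate, a compound that ALDH18A1 forms from glutamate and OAT forms from ornithine, and that PYCR1 reduces to proline. PRODH starts the way back, by oxidising proline in the mitochondrion. Aspartate comes from oxaloacetate and glutamate through the transaminases GOT1 in the cytosol and GOT2 in the mitochondrion, ASNS turns aspartate into asparagine, and GLUD1 interconverts glutamate and 2-oxoglutarate. Aspartate synthesis depends on oxidation of NADH, for which dividing cells rely largely on mitochondrial respiration, and several genes of the group are known targets of the stress transcription factor ATF4.

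The samples were Ter119+ erythroid cells of mouse bone marrow, from which CD45-bearing leukocytes had been depleted. There were 3 arrays from mice homozygous for the Polgtm1Lrsn allele (Polg mutant), whose mitochondrial DNA polymerase lacks proofreading, and 2 arrays from mice with wild-type Polg (WT). All were on a C57BL/6 background and came from matings in which both parents were Atg7 flox/flox and the father carried 1 Epo-cre allele, so every sample had floxed Atg7. The labels do not tell which offspring carried Cre. The series text states that mice were phlebotomized and its title calls the mutator mice aged, but neither the bleeding schedule nor any age was given. Polg read 6.97 on all arrays, which checks no label because the allele changes the protein and not a measured level, and Atg7 read 7.74 on every Polg mutant array, against 7.74 and 7.71 in WT.

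Promoter sequences of the 8 genes were searched on both strands for TGATGNAA, the core of the C/EBP-ATF response element that ATF4 is known to bind, for the E-box CACGTG and for the GATA motif AGATAA. Each window held 300 bases, 250 before and 50 after the annotated start, from RefSeq (GRCm38.p6), and all 8 genes were matched by symbol. The 4 windows that held any match follow, 5′ to 3′ on the gene's own strand, with the match in capitals. They are Asns at chr6:7693160-7693459, Got1 at chr19:43524556-43524855, Pycr1 at chr11:120643699-120643998 and Aldh18a1 at chr19:40588414-40588713, all on the minus strand.
Asns: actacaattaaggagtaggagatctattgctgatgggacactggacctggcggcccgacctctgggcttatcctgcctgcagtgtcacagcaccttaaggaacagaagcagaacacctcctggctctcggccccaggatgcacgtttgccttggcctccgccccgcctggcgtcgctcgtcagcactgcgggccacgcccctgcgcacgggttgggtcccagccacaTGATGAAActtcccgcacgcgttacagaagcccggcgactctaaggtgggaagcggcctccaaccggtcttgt
Got1: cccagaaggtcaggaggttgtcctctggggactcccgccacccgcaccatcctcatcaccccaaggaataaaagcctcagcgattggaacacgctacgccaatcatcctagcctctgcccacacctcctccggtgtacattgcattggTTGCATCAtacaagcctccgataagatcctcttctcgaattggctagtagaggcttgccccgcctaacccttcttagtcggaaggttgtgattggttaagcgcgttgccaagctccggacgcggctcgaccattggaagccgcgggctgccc
Pycr1: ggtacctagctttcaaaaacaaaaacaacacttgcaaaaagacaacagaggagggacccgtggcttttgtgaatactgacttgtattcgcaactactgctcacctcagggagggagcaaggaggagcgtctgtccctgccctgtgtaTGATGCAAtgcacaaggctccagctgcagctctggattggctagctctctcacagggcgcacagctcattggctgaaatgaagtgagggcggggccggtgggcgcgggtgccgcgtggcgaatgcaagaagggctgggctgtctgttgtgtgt
Aldh18a1: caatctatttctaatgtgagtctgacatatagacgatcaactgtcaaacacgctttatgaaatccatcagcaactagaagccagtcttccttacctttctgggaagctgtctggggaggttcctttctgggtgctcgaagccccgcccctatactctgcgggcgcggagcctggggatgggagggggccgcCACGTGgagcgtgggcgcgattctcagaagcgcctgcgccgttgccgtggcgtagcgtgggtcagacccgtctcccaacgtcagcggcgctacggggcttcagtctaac

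TGATGNAA occurred in the windows of Asns, Got1 and Pycr1, and in 3.97% of all 32851 windows of the table. It lay 23 to 16 bases before the start of Asns as TGATGAAA and 103 to 96 bases before that of Pycr1 as TGATGCAA. In Got1 it lay on the opposite strand, read as TTGCATCA, 102 to 95 bases before the start. The E-box CACGTG occurred in Aldh18a1, 59 to 54 bases before the start, and in 7.15% of all windows. AGATAA was found in none of these 8 windows and in 11.2% of all. The windows of Got2, Oat, Prodh and Glud1 held none of the 3 motifs, and no match overlapped another. These letters describe the windows and were not tested as sites.

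Aldh18a1, Got1, Oat and Asns read higher on every Polg mutant array than on either WT array, by 0.45 to 0.99 on the log2 scale, while Got2, Prodh and Glud1 overlapped between the genotypes. None of the 7 passed the threshold, a limma p under 0.05 after Benjamini-Hochberg adjustment over all 22180 genes. No gene of any kind did (0% higher and 0% lower), although 927 were higher (4.18%) and 1183 lower (5.33%) at an unadjusted p under 0.05. At that unadjusted level 3 of the 7 (42.9%) were higher and 0 lower. The groups did not overlap for 4 of the 7 (57.1%), all higher, beside 8.36% of all genes higher and 9.73% lower. Among the 8340 genes whose value passed 6 on 2 or more arrays, which include 6 of the 7, the groups were separate for 16.7% higher and 20.3% lower, and 9.47% were higher and 12.5% lower at an unadjusted p under 0.05. The median difference of the 7 was 0.45, and that of all genes was 0. Nothing in the labels assigns each array to its own mouse, and the p-values reflect array-to-array spread that may be technical.

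**Figure D1:**
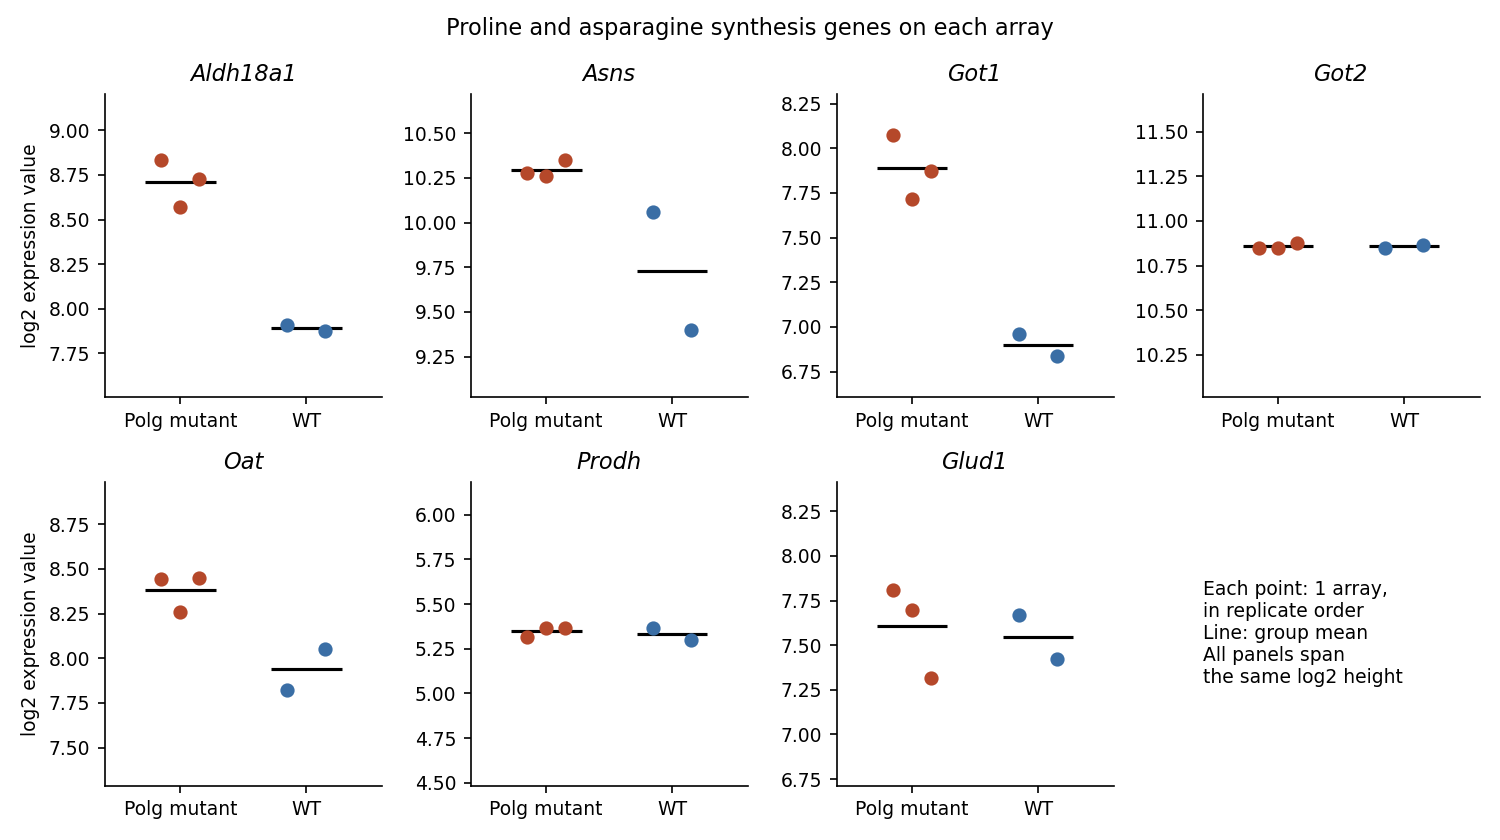
Log2 expression value (vertical axis) of the 7 measured genes on each array, with 3 Polg mutant arrays on the left and 2 WT arrays on the right of each panel. Points are arrays, lines are group means, and every panel spans the same log2 height. Aldh18a1, Asns, Got1 and Oat are separated by genotype, and the WT arrays of Asns lie 0.66 apart.

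Proline synthesis from glutamate begins with Aldh18a1, on chr19:40550257-40588463. It read 8.84, 8.57 and 8.73 on the Polg mutant arrays, against 7.91 and 7.87 in WT. The lowest Polg mutant array lay 0.66 above the highest WT array, and the WT arrays differed by 0.037. The difference was 0.82 ± 0.09 (SE; 3 Polg mutant and 2 WT arrays), or 1.76-fold with a 95% confidence interval from 1.47 to 2.11 (limma unadjusted p = 0.00116, adjusted p = 0.200). Of all genes, 1.06% were higher in the Polg mutant by at least as much. When the fit was restricted to the genes with 5 distinct values, the adjusted p of Aldh18a1 was 0.0478 by limma, and over all alternatives it ran from 0.0478 to 0.520.

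Oat, on chr7:132557475-132576398, encodes the ornithine aminotransferase that feeds the same intermediate. It read 8.44, 8.26 and 8.45 on the Polg mutant arrays, against 7.82 and 8.05 in WT. All Polg mutant arrays were higher, by a gap of 0.21, about as wide as the 0.23 between the WT arrays. The difference was 0.45 ± 0.11 (SE), or 1.36-fold with an interval from 1.11 to 1.68 (limma unadjusted p = 0.0155, adjusted p = 0.336). Leaving out 1 array gave 0.33 to 0.56.

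Prodh, on chr16:18071726-18089283, starts proline breakdown. It read 5.32, 5.37 and 5.37 on the Polg mutant arrays, against 5.37 and 5.30 in WT. No array reached 6, so expression above background was not shown for this gene. The groups overlapped, with a difference of 0.02 ± 0.03 (SE) and an interval from -0.08 to 0.11 (limma adjusted p = 0.845). The same deposited value stood on 3 of the 5 arrays.

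Cytosolic Got1, on chr19:43499752-43524605, had the widest separation of the 7. It read 8.07, 7.72 and 7.87 on the Polg mutant arrays, against 6.96 and 6.84 in WT. The lowest Polg mutant array lay 0.76 above the highest WT array. The difference was 0.99 ± 0.13 (SE), or 1.98-fold with an interval from 1.54 to 2.55 (limma unadjusted p = 0.00196, adjusted p = 0.224, and 0.0470 among the genes with 5 distinct values, in a range up to 0.542 over all alternatives). Of all genes, 0.694% were higher by at least as much.

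Mitochondrial Got2, on chr8:95864133-95888401, read 10.85, 10.85 and 10.88 on the Polg mutant arrays, against 10.85 and 10.87 in WT. The groups overlapped, and Polg mutant replicates 1 and 2 had the same value. The difference was 0.002 ± 0.019 (SE), with an interval from -0.053 to 0.057 (limma adjusted p = 1). Across the alternatives its SE ran from 0.013 without moderation to 0.082 with centring on brighter genes, so the narrow interval depends on the processing. A dimmer Got2 probe set read 5.37, 5.42 and 5.42 in the Polg mutant and 5.27 and 5.69 in WT, and it overlapped too.

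Asns, on chr6:7675165-7693209, makes asparagine. It read 10.28, 10.26 and 10.35 on the Polg mutant arrays, against 10.06 and 9.40 in WT. The Polg mutant arrays lay within 0.088 of each other and all above WT, and the WT arrays were 0.66 apart. The difference was 0.57 ± 0.22 (SE), or 1.48-fold with an interval from 0.952 to 2.31 (limma unadjusted p = 0.0683, adjusted p = 0.620). WT replicate 2 set much of this size. Without it the difference was 0.24 (limma adjusted p = 0.205), and without WT replicate 1 it was 0.90 (adjusted p = 0.0207). With only 1 WT array, its spread is taken to equal that of the Polg mutant arrays.

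Glud1, on chr14:34310727-34345033, encodes the glutamate dehydrogenase of the mitochondrial matrix. It read 7.81, 7.70 and 7.32 on the Polg mutant arrays, against 7.67 and 7.42 in WT. Polg mutant replicate 3 was the lowest of all 5 arrays and replicate 1 the highest. The difference was 0.06 ± 0.19 (SE), with an interval from -0.48 to 0.61 (limma adjusted p = 0.922), so differences between these bounds were not excluded. Leaving out Polg mutant replicate 1 turned it to -0.037, and leaving out WT replicate 2 to -0.060.

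Whether members differed unequally was asked with log2 differences taken within each array, for 5 pairs matched by role. Such a value has no absolute scale between probe sets, and a shift between genotypes describes only how 1 gene stood relative to the other. The exact two-sided permutation test over 5 arrays cannot give less than p = 0.1, so none of these shifts could pass a threshold of 0.05.

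Got1 relative to Got2 was -2.78, -3.13 and -3.01 on the Polg mutant arrays, against -3.89 and -4.03 in WT. Every Polg mutant array was higher, by 0.98 between the means (exact permutation p = 0.1, adjusted p = 0.125 over the 5 pairs). Since Got2 differed by 0.002 between the means, this shift restates that of Got1 and is no separate result.

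Aldh18a1 relative to Glud1, both of which use glutamate, was 1.03, 0.873 and 1.41 on the Polg mutant arrays, against 0.243 and 0.454 in WT. It was higher in the Polg mutant by 0.75 with no overlap (exact permutation p = 0.1, adjusted p = 0.125). Since Glud1 differed by 0.06 between the means, most of this shift restates that of Aldh18a1. Aldh18a1 relative to Oat, the other source of the proline precursor, was 0.394, 0.311 and 0.277 in the Polg mutant, against 0.0864 and -0.177 in WT. The shift was 0.37, again with no overlap (exact permutation p = 0.1, adjusted p = 0.125), and 0.24 without WT replicate 2.

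Asns relative to Got1 was 2.21, 2.54 and 2.48 on the Polg mutant arrays, against 3.10 and 2.56 in WT. It was lower in the Polg mutant by -0.42 on average (exact permutation p = 0.1, adjusted p = 0.125), but the nearest arrays of the 2 genotypes lay at 2.54 and 2.56. It was -0.15 without WT replicate 1 and -0.69 without WT replicate 2. Asns relative to Aldh18a1 was 1.44, 1.69 and 1.62 in the Polg mutant, against 2.15 and 1.52 in WT, and these overlapped (exact permutation p = 0.5, adjusted p = 0.5).

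**Figure D2:**
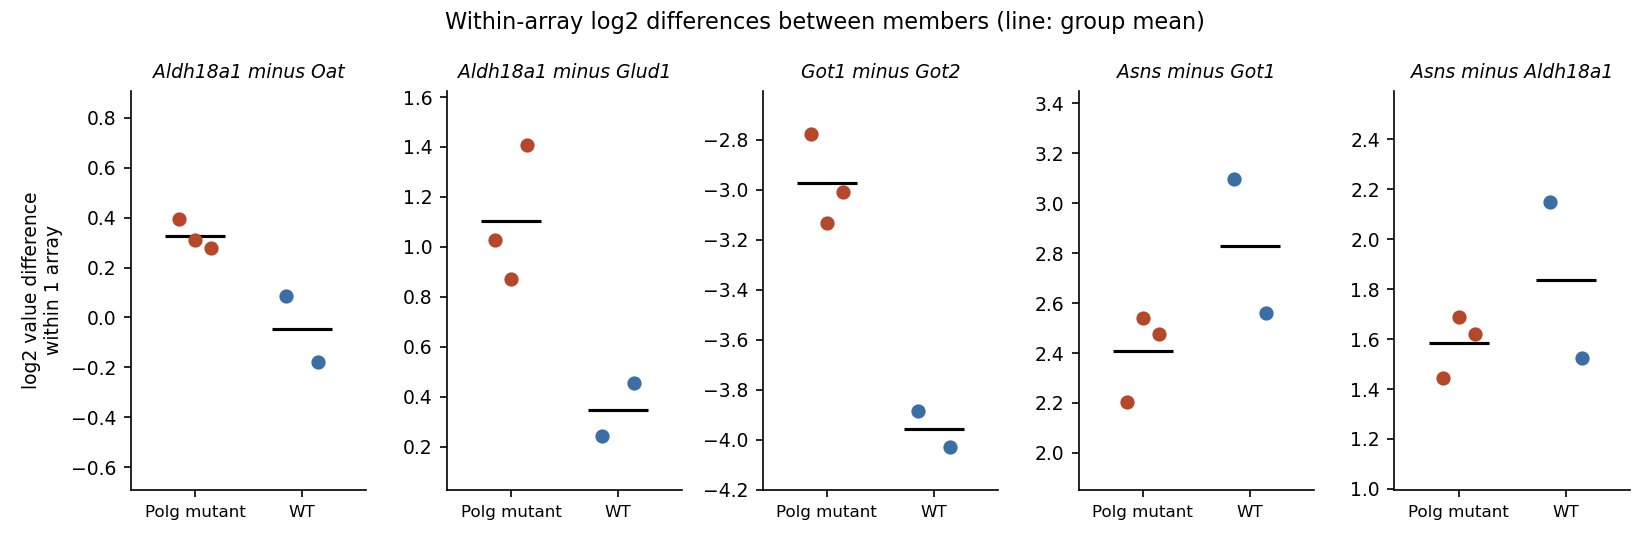
Log2 value of 1 gene minus that of another on the same array (vertical axis), for 5 pairs, with 3 Polg mutant arrays on the left and 2 WT arrays on the right of each panel. Lines are group means. Got1 minus Got2 has the largest shift between the means of these pairs, 0.98, and Asns minus Aldh18a1 is the 1 pair that overlaps.

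A pathway list held 66 further genes, of which 60 were measured. The others were not analysed here. The list covered proline, asparagine, aspartate, glutamate and ornithine metabolism, and also amino acid carriers, tRNA synthetases and prolyl hydroxylases. With limma 0 passed when adjusted over all genes. At an unadjusted p under 0.05, 6 were higher in the Polg mutant (10% of the list, beside 4.18% of all genes) and 4 lower (6.67%, beside 5.33%). The 6 included the synthetase gene Eprs and the carriers Slc1a4 and Slc38a1, and the 4 included the carriers Slc25a12, Slc1a5 and Slc38a5. Polg mutant and WT values were fully separated for 10 higher (16.7% of the list, beside 8.36% of all genes) and 6 lower (10%, beside 9.73%). The median difference was 0, as over all genes. The median of the 7 members was 0.45.

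Among other aminotransferases, Psat1, the glutamate-using enzyme of serine synthesis, read 8.13, 8.05 and 7.71 on the Polg mutant arrays, against 6.92 and 6.36 in WT. Its difference was 1.33 ± 0.24 (SE; limma adjusted p = 0.266). Gpt2, the mitochondrial alanine aminotransferase, read 6.51, 5.92 and 5.92 in the Polg mutant, against 5.42 and 5.46 in WT, and passed 6 on 1 array. Eprs, the synthetase that charges glutamate and proline onto their tRNAs, read 9.25, 9.04 and 9.40 in the Polg mutant, against 8.17 and 8.13 in WT, a difference of 1.08 ± 0.12 (SE; limma adjusted p = 0.207). All 3 genes were higher on every Polg mutant array, and Eprs was named because its limma unadjusted p was under 0.05.

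For the remaining steps of the pathway, Pycrl, the cytosolic relative of Pycr1 that is also named Pycr3, differed by 0.12 ± 0.07 (SE) between means of 7.22 in the Polg mutant and 7.11 in WT. Aldh4a1, which returns the proline intermediate to glutamate, differed by -0.02 ± 0.02 at means of 5.85 in the Polg mutant and 5.87 in WT, below 6 on every array. Asnsd1, which resembles asparagine synthetase, differed by 0.05 ± 0.03 and the glutamine synthetase gene Glul by 0.11 ± 0.12. The groups overlapped for these 4 genes. Nadk2, which makes the mitochondrial NADP that proline synthesis needs, read 10.30, 10.21 and 10.23 in the Polg mutant, against 10.58 and 10.43 in WT. It was lower on every Polg mutant array, by -0.26 ± 0.06 (SE; limma adjusted p = 0.336). Cad, which uses glutamine and aspartate for pyrimidine synthesis, was higher by 0.28 ± 0.08 (SE; limma adjusted p = 0.417). Nadk2 and Cad were named because their limma unadjusted p was under 0.05.

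Carriers differed in both directions. Slc25a12, a mitochondrial aspartate-glutamate carrier, read 8.88, 8.89 and 8.99 in the Polg mutant, against 9.14 and 9.05 in WT, a difference of -0.18 ± 0.05 (SE; limma adjusted p = 0.421). Its relative Slc25a13 and the glutamate carrier Slc25a22 overlapped between the genotypes, at -0.02 ± 0.03 and -0.06 ± 0.10. At the plasma membrane, Slc1a4, a carrier of small neutral amino acids, was higher by 0.89 ± 0.14 (limma adjusted p = 0.241), and the glutamine carrier Slc38a1 by 0.42 ± 0.11 (adjusted p = 0.378). The glutamine carriers Slc1a5 and Slc38a5 were lower, by -0.63 ± 0.19 (limma adjusted p = 0.441) and -0.36 ± 0.05 (adjusted p = 0.225). Each of these 4 membrane carriers was separated between genotypes on all arrays. They were named because their limma unadjusted p was under 0.05, so the separation follows largely from that choice. The other measured plasma membrane carriers of the list overlapped between the genotypes. These were Slc38a2, Slc38a3, Slc6a20a, Slc36a1, Slc1a1, Slc1a2 and Slc1a3.

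**Figure D3:**
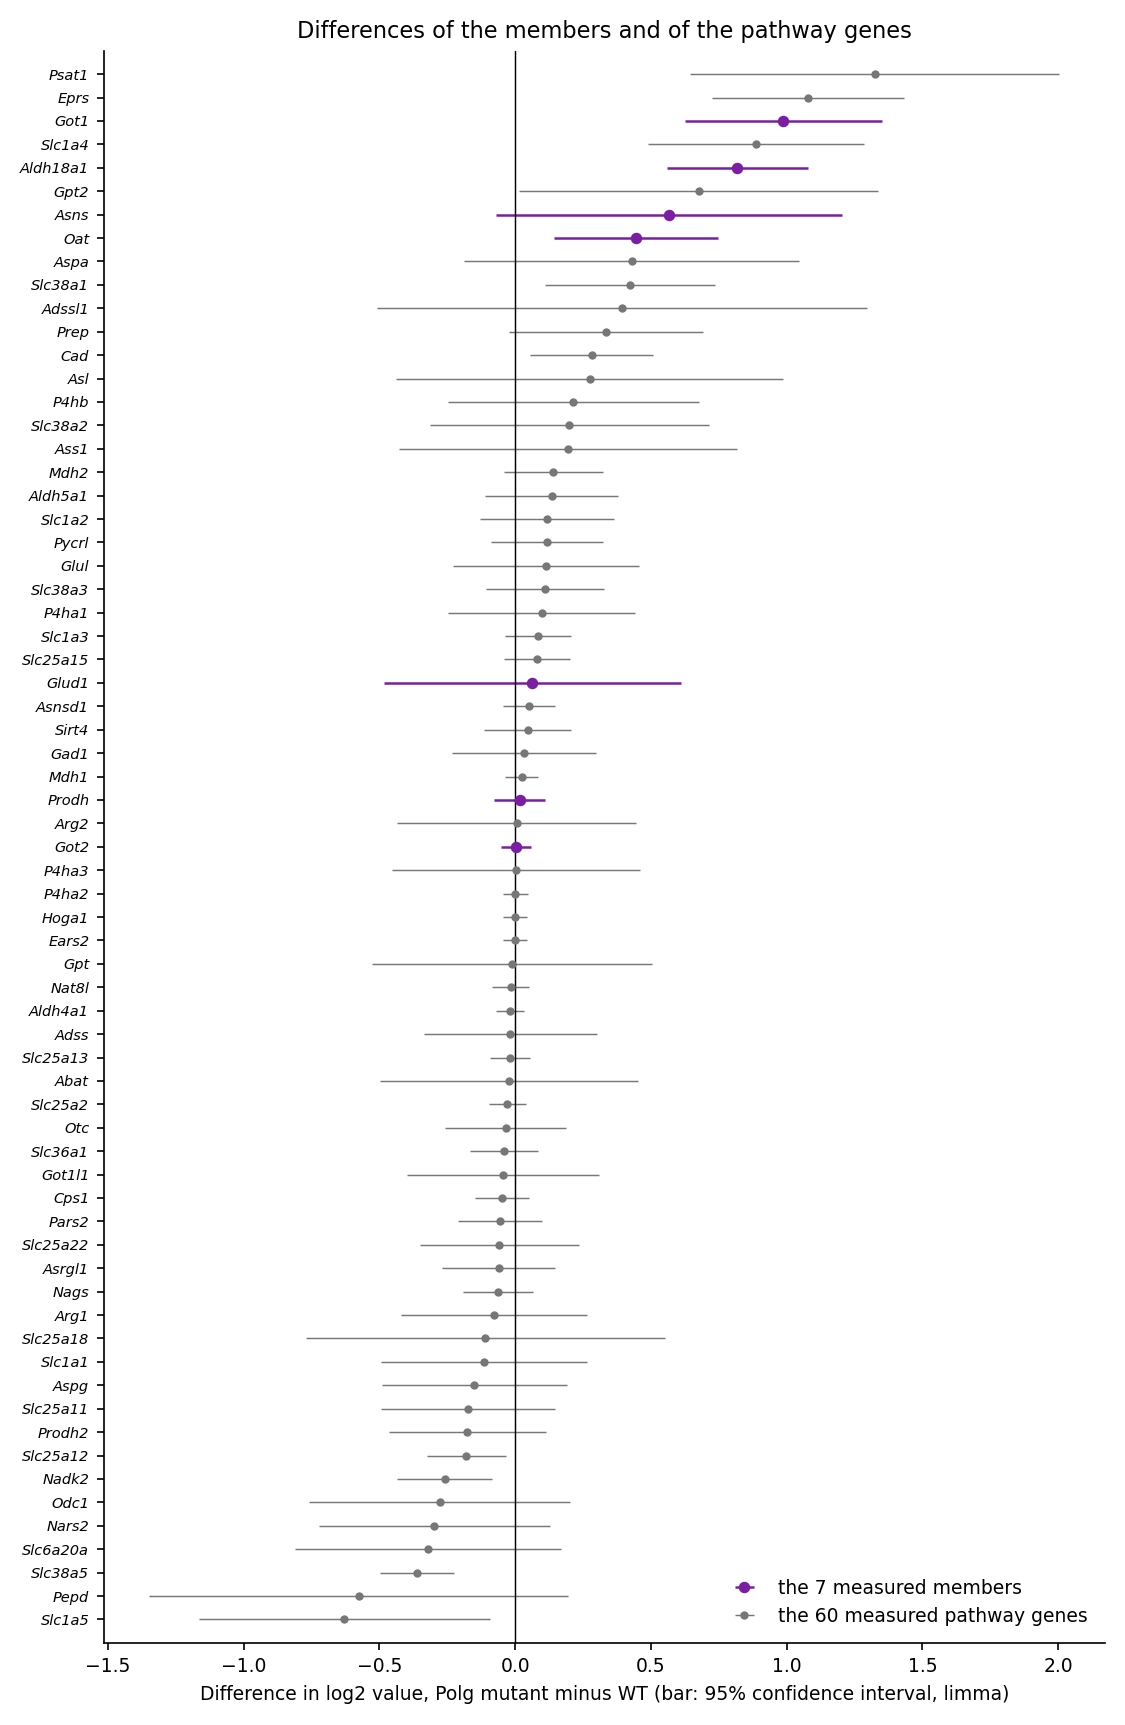
Difference in log2 value between Polg mutant and WT (horizontal axis) for the 7 measured members and the 60 measured pathway genes, ordered by difference. Points are estimates and bars 95% confidence intervals of limma. Got1 and Aldh18a1 stand near the top at 0.99 and 0.82, next to Psat1 at 1.33 and Eprs at 1.08, while Got2 and Prodh lie at 0.002 and 0.02.

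The transcript of Atf4 itself read 8.33, 8.56 and 8.41 on the Polg mutant arrays, against 8.41 and 8.12 in WT, and its difference was 0.17 ± 0.13 (SE; limma adjusted p = 0.639). It was 0.32 without WT replicate 1 and 0.026 without WT replicate 2. Ddit3, which encodes the stress factor CHOP, differed by 0.18 ± 0.15 (SE; limma adjusted p = 0.665). Both overlapped between genotypes. Of 666 genes tested whose promoter window held TGATGNAA, 36 (5.41%) were higher at an unadjusted p under 0.05 and 9.61% were separated as higher, beside 4.06% and 8.43% of 16324 genes whose window did not. This comparison was chosen after the motif matches were seen and is given as a description.

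The arrays also differed in transcripts of other marrow cells. Mean log2 levels of 12 neutrophil genes were 8.91, 9.39 and 7.71 on the Polg mutant arrays, against 8.63 and 7.47 in WT, so the groups overlapped, as did all 12 genes taken singly. Means of 10 measured erythroid genes were 11.36, 11.43 and 11.34 in the Polg mutant, against 11.72 and 11.52 in WT. Of these 10, 9 were lower on every Polg mutant array, beside 9.73% of all genes. Among genes whose value passed 6 on 2 or more arrays, which include all 10, that share was 20.3%. In bulk samples fewer cells of a type and less RNA per cell cannot be told apart. Polg mutant replicate 3 had a lower neutrophil mean than WT replicate 1, 7.71 against 8.63, and a higher one than WT replicate 2, at 7.47. Its Aldh18a1, Got1, Oat and Asns values were above those of WT replicate 1, at 8.73, 7.87, 8.45 and 10.35, against 7.91, 6.96, 7.82 and 10.06. The groups of these genes were separate, so this order was fixed for any pair of arrays, whatever the neutrophil level. Erythroid marker levels moved with genotype. The part of erythroid and neutrophil levels in the differences was not tested. Means of the megakaryocyte and stromal lists were highest in WT replicate 2, at 6.99 and 6.03, the array in which Asns was lowest. Many genes of these lists did not go this way. Pf4 and Treml1 were highest in Polg mutant replicate 2, Lepr and Cdh5 in Polg mutant replicate 3, and Pdgfrb and Pecam1 in Polg mutant replicate 1. Gp5 and Pdgfra held their highest value in WT replicate 2 and elsewhere too. Ppbp read 8.41 in WT replicate 2 and at most 6.04 on any other array. Gp9 read 10.42 in WT replicate 1 and 10.41 in WT replicate 2, and Col3a1 was lowest in WT replicate 2. The part of these lists in the low Asns value was not tested.

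Each of the 5 arrays was left out in turn. The groups of Aldh18a1, Got1, Oat and Asns were separate, so dropping 1 array could not turn their direction. These fits describe only the size of their differences. It ran from 0.76 to 0.89 for Aldh18a1, 0.89 to 1.07 for Got1 and 0.33 to 0.56 for Oat. Asns had the wide range from 0.24 to 0.90. The differences of Got2, Prodh and Glud1, whose groups overlapped, changed sign among these fits and stayed between -0.06 and 0.21.

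**Figure D4:**
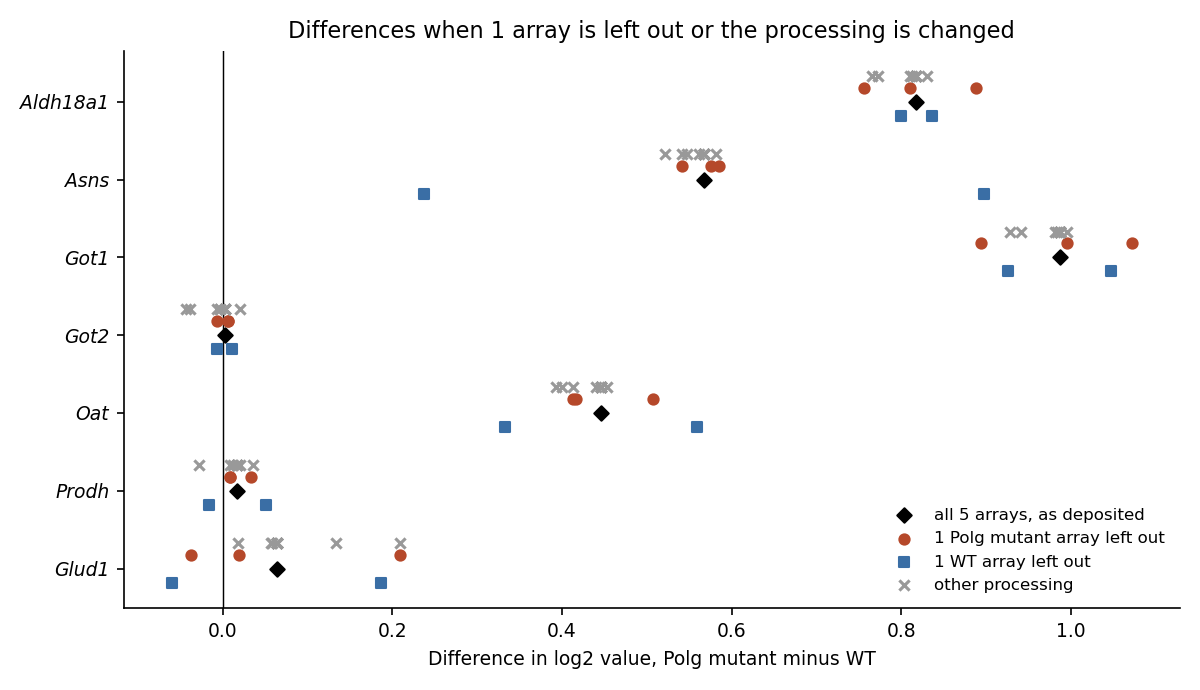
Difference in log2 value between Polg mutant and WT (horizontal axis) for the 7 genes with all arrays, with 1 Polg mutant or 1 WT array left out, and under other processing. Asns spreads from 0.24 to 0.90 with the WT array left out, whereas Aldh18a1 stays between 0.76 and 0.89 and Got1 between 0.89 and 1.07.

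Genes whose values ran most like those of Aldh18a1 were found by the root mean square difference over the 5 arrays, after each gene was centred on its own mean, among 5622 named genes with 5 distinct values. The nearest were the ribosomal protein gene Rpl35 at 0.034, Zxdb at 0.056, Rps18 at 0.074, Vps8 at 0.074 and the nucleolar protein gene Nop58 at 0.075. Zxdb read below 6 on every array. Among the members, Got1 was the nearest to Aldh18a1, in place 24 at 0.094. Oat stood in place 284 at 0.204, Asns in place 470 at 0.246 and Glud1 in place 2266 at 0.414.

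For Asns the nearest genes were Tnfrsf13b at 0.069, Krt77 at 0.076, Xpot, which exports tRNA from the nucleus, at 0.085, Agps at 0.089 and Ksr1 at 0.093. Tnfrsf13b and Krt77 read between 3.68 and 4.83, below 6 on every array. Each of these genes, like Asns, was lowest in WT replicate 2, which follows from their being picked as nearest to Asns. With 5 arrays such likeness describes these samples alone.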

How the data were processed

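Biotin-labelled cDNA was hybridised to Affymetrix arrays, 1 per sample. The authors deposited 1 table of log2 values for 41345 probe sets, and the submitters' processing notes name RMA and Partek 6.5 without saying what each did. That the unit is log2 follows from the range, 1.43 to 14.07. For the arrays' build, nothing is given in the sources used here. The number of arrays limits the precision.

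The platform annotation paired 23521 probe sets with 1 symbol, 1814 with more, and left 16010 unnamed. The brightest single-symbol probe set per gene left 22180 genes, all fitted with limma 3.58.1 in R 4.3.3, genotype as single term, two-sided, with Benjamini-Hochberg adjustment over all genes. The fit was tested on simulated data drawn without ties between arrays, so that test does not cover tied genes. Ties between arrays affected 67.9% of genes and lower the typical variance that limma estimates. Members, gene lists and tests were chosen with earlier results of these data known. Named genes are the members, a fixed set, and other pathway genes with an unadjusted p under 0.05. Alternatives covered scaling, filters, moderation, array weights, probe set choice, the replicate block and leaving out each array. Positions are from RefSeq genes of GRCm38.p6.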

Additional observations from a re-analysis of the deposited data

How the results depend on the processing

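In the 11 alternatives other than leaving out an array, Aldh18a1 (0.77 to 0.83), Got1 (0.929 to 0.996), Asns (0.52 to 0.58) and Oat (0.39 to 0.45) kept their direction. Most of these could not change it. Gene filters, the variance trend, robust fitting and no moderation leave the difference as it is, and so did the mean of probe sets for these genes. The replicate block gave the same differences as leaving out Polg mutant replicate 3. Among the 7112 genes with 5 distinct values, 73 higher and 41 lower passed the threshold. The higher ones included Aldh18a1 (0.82), Got1 (0.99), Eprs (1.08) and Psat1 (1.33), with limma adjusted p = 0.0478, 0.0470, 0.0363 and 0.0484. Without moderation the adjusted p was 0.520 for Aldh18a1 and 0.542 for Got1. By its construction that filter keeps no gene tied between arrays, and it tests fewer genes. Got2 and Prodh are not in it, and Prodh is not among the genes above a log2 of 6. Got2 turned to -0.0032 with median centring, -0.043 with centring on brighter genes, -0.0034 with array weights, -0.038 with the mean of its probe sets and -0.0067 with the replicate block. Prodh turned to -0.028 with centring on brighter genes. Leaving out each array gave 0.24 to 0.90 for Asns, -0.0071 to 0.011 for Got2, -0.017 to 0.051 for Prodh, -0.060 to 0.21 for Glud1, -0.11 to 0.029 for Slc25a22, -0.031 to 0.39 for Ddit3 and -0.56 to 0.061 for Asns relative to Aldh18a1. The cause of these turns was not tested.

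Genes past the adjusted threshold numbered 0 higher and 0 lower, but 8 and 1 after renewed quantile normalization. They numbered 30 and 18 after centring on brighter genes, and 4 and 1 without moderation. Among the 8340 genes above a log2 of 6 they numbered 6 and 5, and among the 7112 with 5 distinct values 73 and 41. They ranged from 0 to 713 higher and from 0 to 1068 lower when 1 array was left out, with 717 to 1899 higher and 906 to 2576 lower at an unadjusted p under 0.05. Without WT replicate 1 there were 713 higher and 1068 lower, and without WT replicate 2 there were 511 and 413. Pathway genes at that unadjusted level numbered 3 higher with array weights, beside 691 of all 22180 genes. They numbered 2 lower with 5 distinct values, beside 802 of those 7112 genes, and that filter drops the 33 tied pathway genes. With 1 array left out they numbered 4 to 8 higher and 2 to 6 lower. Whether the replicate numbers pair the samples could not be decided. Deviations from the group means correlated across genes at 0.188 for the arrays numbered 1 and at -0.201 for those numbered 2. The deviations of the 2 WT arrays mirror each other, so each Polg mutant array must give equal and opposite values against them. The replicate block gives Polg mutant replicate 3, whose number no WT array shares, no weight in the difference. With the replicate block, 0 genes passed, with 1089 higher and 1057 lower at an unadjusted p under 0.05.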
